A study of Homo sapiens with 24 samples.

Results

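The G1 cyclins, the cyclin-dependent kinases (CDKs) they activate and the proteins that restrain or release them were followed as a set of 10 mRNAs: CCND1, CCND2, CCND3, CCNE1, CCNE2, CDK4, CDK6, CDKN1A, CDC25A and WEE1. The set was taken by gene name from the authors' list of Ago2 crosslinking peaks, and all 10 genes had rows. They carried 124 of 24041 peaks, and the list held 6088 genes in all. Ago2 is the Argonaute protein that holds a miRNA and pairs it with target RNA, and CLIP (crosslinking and immunoprecipitation, followed by sequencing) maps where it touches RNA. The samples came from 293S cells, an established human embryonic kidney line, which had received sodium arsenite, a stressor that halts translation initiation, at 1 mM over 30 min, or no treatment. Arsenite-treated and untreated cells each had 4 biological replicates of mRNA CLIP, of total RNA sequencing and of a separate CLIP band, called LO, that was used to quantify miRNAs, which makes 6 groups and 24 samples. RNA-seq values were not analysed here.

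D-type cyclins (CCND1 to CCND3) bind CDK4 and CDK6 and start the phosphorylation of the retinoblastoma protein, and E-type cyclins (CCNE1 and CCNE2) with CDK2 complete it, after which E2F factors turn on S phase genes. CDKN1A (p21) inhibits these kinases, WEE1 blocks CDKs by tyrosine phosphorylation, and the phosphatase CDC25A removes that mark. Many of these mRNAs are textbook miRNA targets: miR-15/16 is known to repress CCND1 and CCNE1, and the miR-17 family to repress CDKN1A. Such lines carry adenovirus E1 genes, whose products are known to bind the retinoblastoma protein, which limits the cells as a model of this pathway in both treatments.

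The miRNAs below show some of the families with 2 or more matched peaks in the set, with miR-25-3p added for the highest CCNE2 peak. They are printed 5′ to 3′ from RefSeq (GRCh38.p14), with bases 2 to 8, the seed, in capitals. Of the 89 miRNAs in the families that matched these genes, 77 were in the RefSeq table.
miR-16-5p: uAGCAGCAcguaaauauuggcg
miR-103a-3p: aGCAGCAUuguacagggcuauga
miR-17-5p: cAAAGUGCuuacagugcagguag
miR-19a-3p: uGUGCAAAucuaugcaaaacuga
miR-26a-5p: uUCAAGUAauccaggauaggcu
miR-29a-3p: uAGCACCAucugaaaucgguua
let-7a-5p: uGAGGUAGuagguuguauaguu
miR-30a-5p: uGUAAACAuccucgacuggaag
miR-25-3p: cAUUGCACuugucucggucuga
In DNA letters the target matches are TGCTGCT for miR-15/16, ATGCTGC for the family of miR-103 and miR-107 (named miR-103 here), GCACTTT for miR-17, TTTGCAC for miR-19 and GTGCAAT for miR-25/92. The miR-15/16 and miR-103 matches overlap in sequence, so a single site can serve for both. A seed match here is the authors' own annotation of 7-nucleotide matches to 50 families, and a match is not proof that the miRNA was bound. Of all peaks, miR-15/16 was listed for 4.13%, miR-17 for 2.98%, miR-19 for 2.31% and miR-25/92 for 1.79%.

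For every peak the authors gave, over all replicates together, an average signal on a log scale (log average) and the logged ratio of the arsenite to the untreated signal (log ratio). Positive ratios mean more normalized Ago2 signal with arsenite. Neither the log base nor the normalizer is stated, so values stay on this scale, and whether a ratio already allows for RNA abundance is unknown. With no value per sample there is no SD, no test and no known depth, and in whole cultures fewer cells of a kind and less RNA per cell cannot be told apart.

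Most peaks of the set had more Ago2 signal with arsenite, at a share near that of all peaks. Of the 124 peaks, 86 had a log ratio above 0 (69.4%, Wilson 95% interval over peaks 60.8 to 76.8%), beside 70.3% of all peaks. Their median was 0.62, with a binomial 95% interval over peaks of 0.30 to 0.92, and the median of all peaks was 0.65. A log ratio above 1 was found at 45 of the 124 peaks (36.3%, beside 39.1% of all peaks), and one below -1 at 7 (5.65%, beside 7.43%). Neighbouring peaks overlap and share a transcript, so these intervals are too narrow.

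By position, 100 of the 124 peaks lay in 3′UTRs (beside 51.0% of all peaks), 18 in coding sequence (CDS, beside 34.5%) and 6 in 5′UTRs (beside 9.02%). In 3′UTRs 75 of 100 had a log ratio above 0 (beside 76.2% of all 3′UTR peaks), with a median of 0.79. In the CDS 9 of 18 did (beside 68.4%), with a median of -0.05, and in 5′UTRs 2 of 6 (beside 60.8%), with a median of -0.44. WEE1 supplied 15 of these 24 CDS and 5′UTR peaks, and without it 7 of the other 9 lay above 0, with a median of 0.94. The set was densely covered: 5 of its 10 genes had 10 or more peaks, beside 8.69% of all genes.

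The genes themselves were spread widely. CCNE2 had the highest gene median, 1.76 over 7 peaks, followed by CCND3 with 1.69 at its single peak, CCNE1 with 1.24 over 4, CDK6 with 1.08 over 14 and CCND2 with 1.01 over 23. CDC25A had 0.93 over 8 peaks and CDK4 0.66 over 4. CDKN1A followed with 0.50 over 13 peaks, and CCND1 and WEE1 were lowest, with 0.03 over 22 and -0.09 over 28. So 9 of 10 gene medians lay above 0, beside 81.3% of all genes. Of the 9 neighbouring pairs in this order, 9 had overlapping ranges of peaks, and of all 45 pairs only CCND3 against CDC25A, CDK4 and WEE1 did not overlap, on the strength of 1 CCND3 peak.

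**Figure D1:**
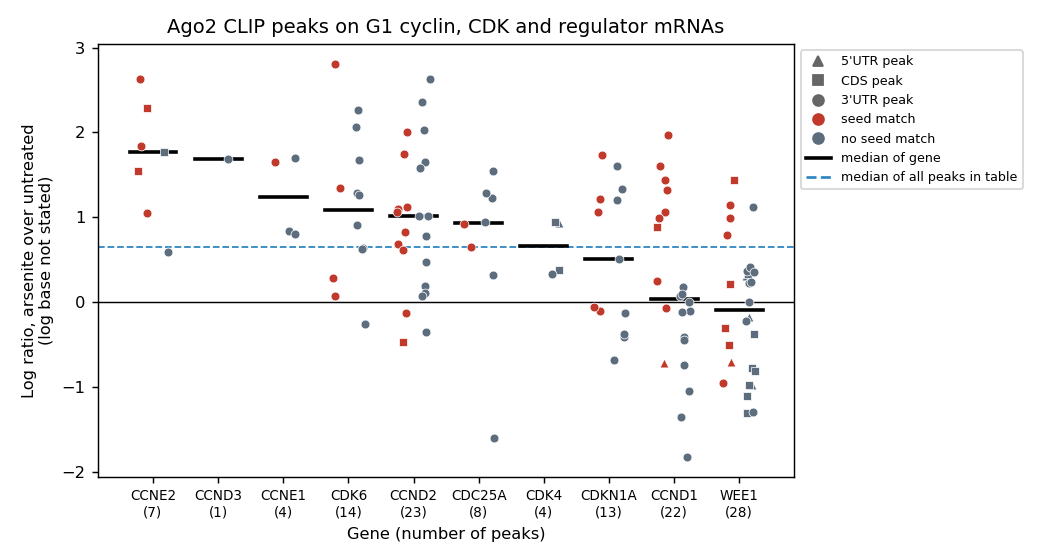
Log ratio of every Ago2 peak (points) on the 10 genes, ordered by gene median (black bars), with seed-matched peaks on the left in red and others on the right in grey, and shapes for the transcript region. CCNE2, CCND3, CCNE1 and CDK4 lie wholly above 0, while CCND1 and WEE1 are centred near 0, below the dashed median of all peaks (0.65).

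Of the D-type cyclins, CCND1, the main cyclin D of many epithelial cells, showed the sharpest split along its own 3′UTR. The 8 seed-matched peaks there had a median log ratio of 1.19 and the 12 without a match a median of -0.27. In order along the transcript, the matched peaks had 1.96 (miR-340-5p), 1.06 (miR-374), -0.07 (miR-18a-3p and miR-3065-5p), 1.60 (miR-193), 1.33 (miR-19), 1.44 (miR-15/16), 0.99 (miR-23) and 0.25 (miR-338-3p). The unmatched peaks ran from -1.83 to 0.17, and 7 of the 8 matched peaks were higher than every one of them. Matched peaks of CCND1 were not the stronger ones, with a median log average of -5.16 beside -4.91 for the unmatched. The strongest CCND1 peak (hg19, chromosome 11, 69468065 to 69468106, plus strand, 3′UTR) was the miR-15/16 one, with a log average of -3.81. The lowest, -1.83, was the first 3′UTR peak (69466150 to 69466208). Outside the 3′UTR, CCND1 had 1 CDS peak at 0.89 that matched miR-196 and miR-7-5p, and 1 5′UTR peak at -0.71 that matched the family of miR-324-3p.

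CCND2, the D-type cyclin known for its long, miRNA-rich 3′UTR, had 20 of its 23 peaks above 0, all 20 of them among its 22 3′UTR peaks. Here matched and unmatched peaks did not separate. The 9 matched 3′UTR peaks had a median of 1.06 and the 13 unmatched ones 1.01. Most CCND2 peaks were weak: without the weakest 25% of the list, 8 were left with a median of 1.44, whereas all 22 CCND1 peaks stayed. The strongest peak (hg19, chromosome 12, 4410115 to 4410186, plus strand) matched miR-17 and had 1.75, and a peak matching both miR-19 and miR-130 had 1.999. Other matched peaks had 1.12 (miR-26), 1.10 (miR-18-5p), 1.06 (miR-19), 0.83 (miR-185-5p), 0.68 (miR-29), 0.62 (miR-28-5p) and -0.13 (miR-3065-5p). Its highest log ratio, 2.63, belonged to an unmatched peak that was almost as strong (4409773 to 4409816, log average -4.26, beside -4.09 for the miR-17 peak). The lowest was -0.47 at the single CDS peak, which matched miR-7-5p. CCND3 had only an unmatched 3′UTR peak, with 1.69 (hg19, chromosome 6, 41902693 to 41902741, minus strand).

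The E-type cyclins had no peak at or below 0, and neither had CDK4 (4 peaks) and CCND3 (1 peak). Of all peaks, 70.3% were above 0. All 4 CCNE1 peaks lay in the 3′UTR, between 0.80 and 1.70, and within a short stretch (hg19, chromosome 19, 30314813 to 30315044, plus strand). The strongest of them (30314915 to 30314960) had 1.65 and a log average of -2.47, the highest of all 124 peaks, and it matched miR-15/16, miR-103 and miR-26 together. CCNE2 differed in carrying 3 of its 7 peaks in coding sequence, with 2.29 (miR-29), 1.76 (no match) and 1.55 (let-7). In its 3′UTR a miR-25/92 peak had 2.63, the adjacent miR-30 peak 1.84, a second miR-30 peak 1.05 and the unmatched peak 0.60.

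Of the kinases, CDK6 and CDK4, which act on the same substrate, differed in peak number and placement. CDK6 had 14 peaks, all in its long 3′UTR (hg19, chromosome 7, minus strand), and 12 lay above 0. Its first 3′UTR peak (92244257 to 92244298), which matched miR-33, had 2.81, the highest log ratio of the set and higher than 97.4% of all peaks in the list. Further matches had 1.34 (miR-29), 0.29 (miR-15/16) and 0.07 (miR-26). The strongest CDK6 peak (92237942 to 92237979) matched no listed family and had 2.27, and the peak next to it 2.06. The lowest value, -0.26, was listed for a pair of overlapping peaks with identical averages as well. Most CDK6 peaks were weak: without the weakest 25% of the list, 3 were left and their median was 2.27. CDK4 had 4 unmatched peaks, 2 in CDS, 1 in the 5′UTR and 1 in the 3′UTR, with log ratios of 0.38, 0.95, 0.94 and 0.33.

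CDKN1A, the p21 inhibitor, had 13 peaks, all in the 3′UTR (hg19, chromosome 6, plus strand), and 7 lay above 0. The pair of miR-17 matches had 1.21 (36653992 to 36654079, also miR-186-5p) and 1.74 (36654708 to 36654748, also miR-130). The let-7 peak had 1.06. The miR-15/16 peak (36654364 to 36654409) had -0.06 and the miR-185-5p peak -0.10. Among the unmatched peaks, a run of 4 overlapping ones after the first miR-17 match had -0.42, 1.60, 1.20 and 1.33, whereas the strongest peak of the gene had -0.13 and the first peak of its 3′UTR -0.68, the lowest. Peaks above and below 0 were thus mixed along this 3′UTR.

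CDC25A and WEE1, which remove and add the same inhibitory phosphate, differed as well. All 8 CDC25A peaks were in the 3′UTR, and 7 lay above 0. The strongest (hg19, chromosome 3, 48199700 to 48199773, minus strand) matched miR-15/16 and had 0.65, the adjacent miR-21 peak had 0.92, and the unmatched peaks ran from -1.61 to 1.55. WEE1 carried the most peaks, 28, spread over the whole mRNA (hg19, chromosome 11, plus strand), and its log ratio went with position. In the 5′UTR 1 of 4 peaks and in the CDS 3 of 11 lay above 0, with medians of -0.44 and -0.51, against 9 of 13 with a median of 0.35 in the 3′UTR. In the whole list 3′UTR peaks were also the highest, with a median of 0.88 and 76.2% above 0. Its CDS and 5′UTR medians were 0.58 and 0.25. Of all 5′UTR and CDS peaks in the list 66.8% were above 0, beside 4 of 15 in WEE1 (26.7%), or 3 of 10 when 1 peak was kept per overlap. The WEE1 median over all peaks turned positive with 1 peak per overlap (0.10 over 18 peaks).

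Within the WEE1 3′UTR the lowest values lay near its start. The first peak, which overlaps the last CDS peak and matched miR-27, had -0.95 (9610126 to 9610195), and an unmatched one shortly after it -1.30 (9610319 to 9610364). Beyond these, a miR-15/16 peak had 0.99 (9610364 to 9610459), the strongest peak of the gene, with a miR-17 match, 0.79 (9610595 to 9610681), and the second miR-15/16 peak, which overlaps it, 1.15 (9610677 to 9610745). In its CDS, matched peaks had 1.44 (miR-10, the highest WEE1 value), 0.21 (miR-186-5p and miR-3065-5p), -0.31 (miR-15/16 and miR-29) and -0.51 (miR-103), and the matched 5′UTR peak had -0.70 (miR-18-5p). The lowest WEE1 log ratio, -1.30, to 2 decimals shared with that 3′UTR peak, belonged to an unmatched peak late in the CDS (9610002 to 9610080).

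**Figure D2:**
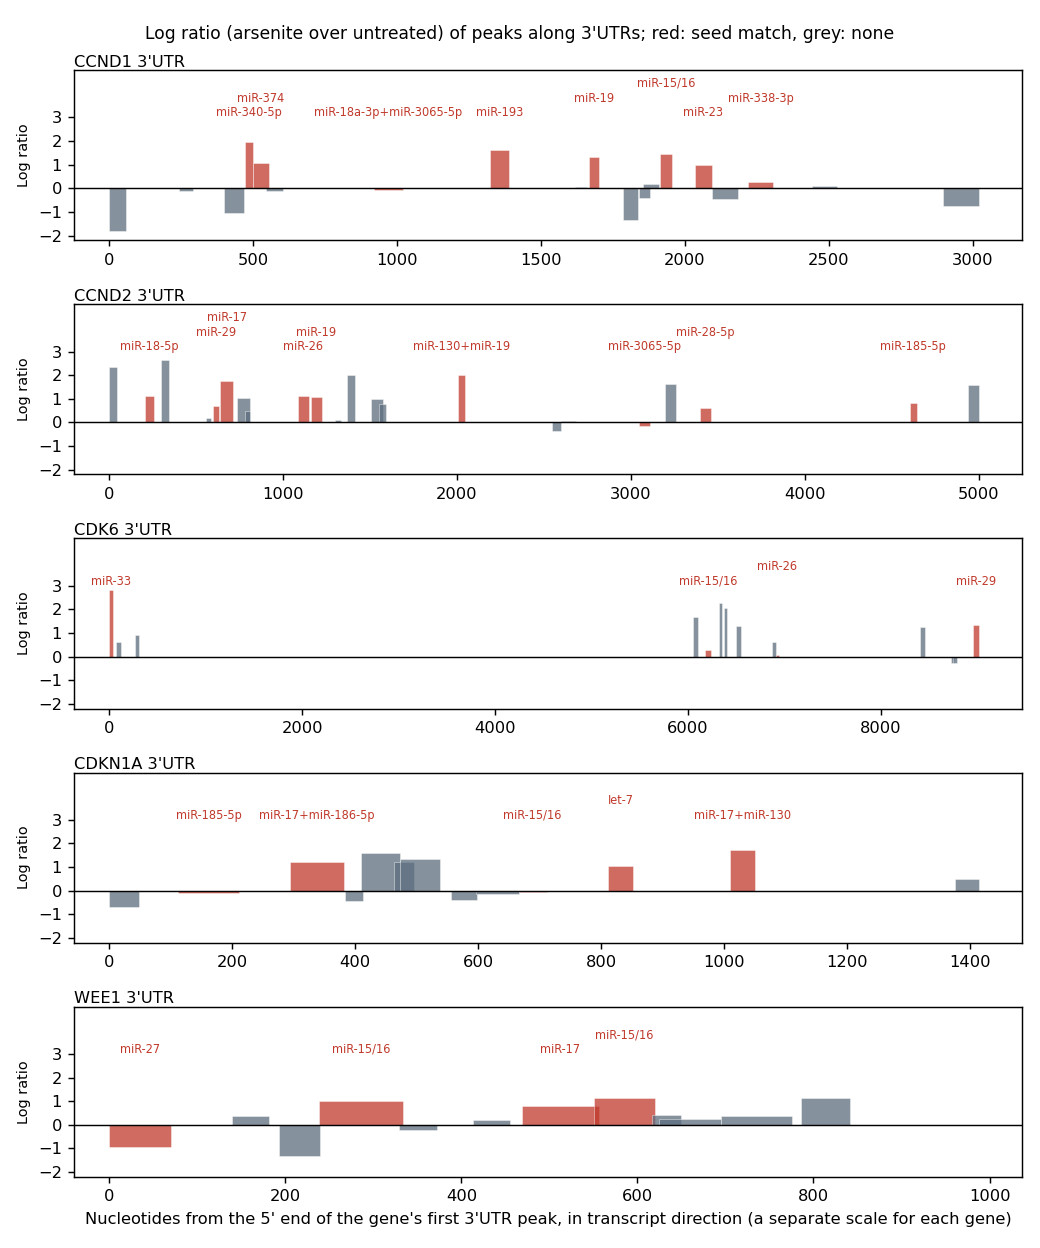
Log ratio (bar height) of 3′UTR peaks against genomic distance in nucleotides from each gene's first 3′UTR peak, with bar width as peak length and red bars for seed matches named above them. In CCND1 all red bars but the small miR-18a-3p one stand above 0, among grey bars at or below 0.17, whereas tall bars of both colours occur in CCND2 and CDK6.

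Over the whole set, 46 of 124 peaks had a seed match (37.1%), beside 31.5% of all peaks, but within 3′UTRs it was 36 of 100, beside 38.5% of all 3′UTR peaks. The matched peaks had a median of 1.02 and 36 of 46 lay above 0 (78.3%, beside 79.2% of all matched peaks). The 78 unmatched ones had a median of 0.33 with 50 above 0 (64.1%, beside 66.2% of all unmatched peaks). The difference of these medians, 0.69, can be set beside that in the list as a whole, where matched peaks had a median of 1.06 and unmatched peaks 0.48. Within 3′UTRs, 31 of 36 matched peaks were above 0 (86.1%, beside 83.0% of matched 3′UTR peaks in the list) and 44 of 64 unmatched ones (68.8%, beside 72.0%). Taking each gene by itself, 8 had both kinds of peak in the 3′UTR, and in 6 the median of matched peaks was higher, beside 62.5% of the 1569 such genes in the list. The differences were 1.46 in CCND1, 1.25 in CCNE2, 0.87 in CDKN1A, 0.80 in CCNE1, 0.65 in WEE1 and 0.05 in CCND2, and in CDK6 and CDC25A they were -0.27 and -0.30. In CCNE1 and CCNE2 a single peak stands for 1 of the kinds.

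The strongest peak of most genes had a positive log ratio, in the set as in the list. The peak with the highest log average of each gene lay in the 3′UTR in 10 of 10 genes. The matching share over all genes was not computed, and 100 of the 124 peaks of the set lay in 3′UTRs. These strongest peaks matched a seed in 6 genes (60.0%, beside 44.5% over all genes). They were above 0 in 9 of 10, CDKN1A being the exception (Wilson interval over genes 59.6 to 98.2%). That interval includes the 79.9% over all genes. Across the peaks of 1 gene, log average and log ratio had a Pearson correlation of 0.72 in CDK6 (14 peaks), 0.46 in CCND2 (23), 0.36 in WEE1 (28), 0.04 in CCND1 (22) and -0.07 in CDKN1A (13). Peaks of a gene share libraries and transcript, so these are descriptions only, and over all peaks the value was 0.01. The CDK6 value includes the pair of overlapping peaks with identical values, and most CDK6 peaks were weak.

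**Figure D3:**
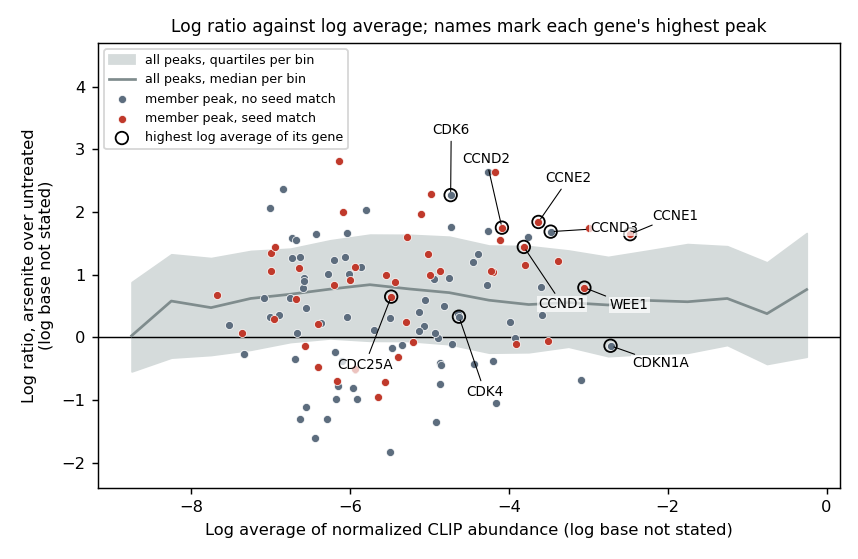
Log ratio against log average of the 124 peaks (red with a seed match, grey without), over the median (line) and quartiles (band) of all peaks in bins of log average holding at least 20 peaks. Rings mark the strongest peak of each gene, of which only that of CDKN1A (-0.13) is below 0.

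The families most often matched in the set were miR-15/16, with 8 peaks in 6 genes, miR-17 with 4 in 3 genes and miR-29 with 4 in 4 genes. The miR-15/16 peaks spread from -0.31 in WEE1 to 1.65 in CCNE1, with a median of 0.82, beside 0.92 for all 994 peaks of that family. By gene, CCNE1, CCND1 and the 3′UTR of WEE1 had miR-15/16 peaks near or above 1, CDC25A 0.65 and CDK6 0.29, while CDKN1A and the WEE1 coding sequence lay below 0. The 4 miR-17 peaks were all above 0, between 0.79 and 1.75, with a median of 1.48 beside 1.67 in the list. The 3 miR-19 peaks had 1.06, 1.33 and 1.999, and the 2 miR-130 peaks 1.74 and 1.999. The 3 miR-3065-5p peaks had 0.21, -0.07 and -0.13, beside a median of 0.85 over all 169 peaks of that family. Several peaks match more than 1 family, so families share values.

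**Figure D4:**
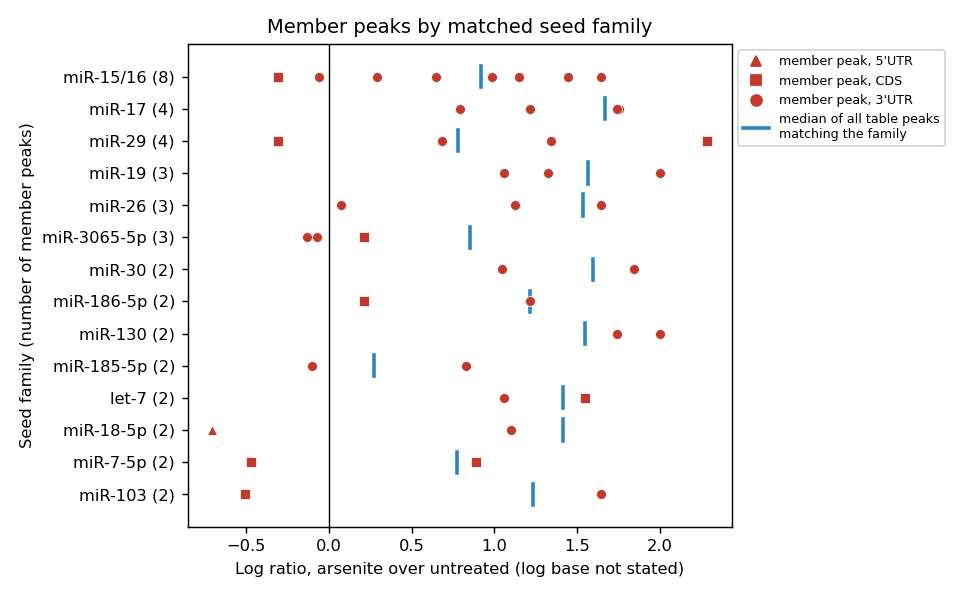
Log ratios of the set's peaks (points, shape by region) for each seed family matched in at least 2 of them, with blue bars at the median of all peaks in the list that match the family. The miR-17, miR-19, miR-26, miR-30, miR-186-5p, miR-130 and let-7 points are all above 0, whereas miR-15/16 points run from -0.31 to 1.65.

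Seed families were also divided by how much of the Ago2-bound miRNA they made up. Of the 28 families matched in the set, 12 held at least 1% of the summed means of mature miRNAs, beside 17 of the 50 families in the list. Peaks matching such a family had a median of 1.05 with 23 of 26 above 0, beside 1.32 and 86.1% in the list. The 20 peaks matching only less abundant families had a median of 0.91 with 13 above 0, beside 0.68 and 70.1%. Unmatched peaks, as given above, had 0.33.

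The matched miRNAs had no called difference between treatments. In the authors' deposited table of LO band libraries, tested with DESeq, 0 of the 80 entries of the 28 families had an adjusted p under 0.05 and the lowest adjusted p was 1, as 0 of all 1000 mature entries passed. Unadjusted p-values under 0.05 were listed for 2 of the 80 in the authors' deposited table, beside 1.90% of all mature entries. These were miR-324-3p, with authors' means of 105288 with arsenite and 159639 untreated (log2 fold change -0.60, p = 0.00771), and miR-18a-3p, with 18110 with arsenite and 26880 untreated (log2 fold change -0.57, p = 0.0113), both with an adjusted p of 1 from DESeq as the authors' deposited table gives it. In CCND1, their matched peaks had -0.71 and -0.07, the latter also matching miR-3065-5p. The matched families with the next lowest log2 ratios of summed means in the authors' deposited table had peaks of mixed height. With -0.49, miR-28-5p had 0.62 in CCND2. With -0.34 each, miR-193 had 1.60 in CCND1 and miR-33 had 2.81 in CDK6. With -0.30, miR-185-5p had 0.83 in CCND2 and -0.10 in CDKN1A. Over all peaks of a family in the list, medians were 0.22 for miR-324-3p, 0.05 for miR-18a-3p and 0.21 for miR-28-5p. They were 0.51 for miR-193, 1.43 for miR-33 and 0.27 for miR-185-5p, beside 0.65 for all peaks. Whether miRNA means and peaks go together was not tested. Summed over family members, the authors' deposited table gave miR-15/16 a mean of 1093310 with arsenite and 1087230 untreated, and miR-17 1017990 with arsenite and 1024760 untreated (log2 ratios of 0.01 and -0.01). For miR-30 and miR-19 the log2 ratios of summed means from the authors' deposited table were -0.16 and -0.13. An adjusted p that misses the threshold does not show that the miRNAs were the same.

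**Figure D5:**
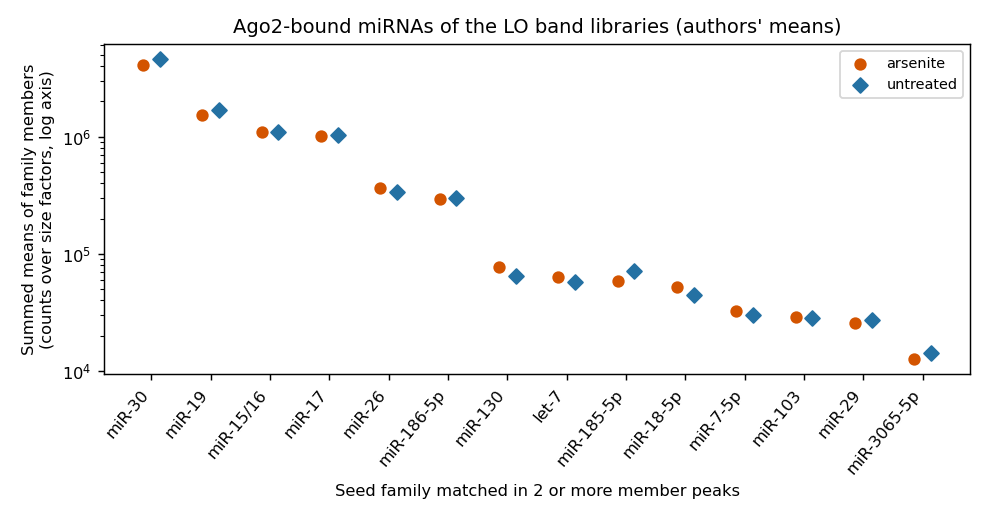
Summed authors' means of Ago2-bound miRNAs (log axis) for each seed family matched in at least 2 peaks of the set, with arsenite as circles on the left and untreated as diamonds on the right. In each family the paired points lie close together, with log2 ratios between -0.30 (miR-185-5p) and 0.25 (miR-130).

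Of 59 other cell cycle genes in 7 groups, 48 were listed, and 45 of their gene medians lay above 0, beside 81.3% of all genes. Later cyclins and CDKs had 19 of 21 peaks above 0, beside 70.3% of all peaks. CCNB1, the mitotic cyclin, had a gene median of 1.88 and CDK2, the partner of cyclin E, 1.30, while CDK1 and CCNA2 had 0.98 and 0.60. The other CDK inhibitors had 12 of 18 peaks above 0 (66.7%), near the 70.3% of all peaks. CDKN1B (p27) had a median of 0.66 over 13 peaks, from -0.81 to 2.49, and CDKN2A 0.45 over 3. Among relatives of CDC25A and WEE1, PKMYT1, a membrane-bound CDK-inhibitory kinase, had 0.23 over 8 peaks. Of the genes for ubiquitin ligase parts and their partners, 11 of 12 had medians above 0. SKP2, which targets p27, had 1.86, and FBXW7, which targets cyclin E, 1.83, while DDB1 and CDT1 had 0.36 and 0.41.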

How the data were processed

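The 293S libraries (mRNA CLIP, total RNA and LO band) were grouped by the treatment in their labels. Tools named in the submitters' processing notes are TopHat, DESeq and Bowtie 0.12.8, with hg19 as the build. How peaks were called and filtered is not given in the sources used here. Per the file headers, the authors deposited the logged average and the logged arsenite to untreated ratio of CLIP abundance for each peak, treated here as a score because base and normalizer are not stated. Positions are printed as deposited, with the counting base (0 or 1) unstated. The miRNA table uses miRBase 18 names, and the authors deposited means as signal (counts divided by size factors), their ratio (fold), its log2 value, and p-values with adjusted p-values from DESeq. There were 0 columns with values of single samples.

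From these, medians, counts and shares were computed in Python 3.11.15 with pandas 2.3.3, numpy 2.4.6 and scipy 1.17.1, and the interval functions were tested on simulated data. Intervals over peaks are Wilson (shares) or exact binomial (medians) at 95% and cover counting error only. A family's means are sums over its listed members. The genes, the pathway list and the alternatives were chosen with earlier results of these data known. Named peaks were the strongest, the highest, the lowest and each seed-matched peak of a gene, and other unmatched peaks were chosen after seeing their values. Pathway genes named had at least 3 peaks and the 2 highest or 2 lowest medians of their group, and RB1, CDKN2D, CDC25B and CUL3 were named outside that rule. Some genes of the list are not reported here.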

Additional observations from a re-analysis of the deposited data

How the results depend on the processing

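The tables hold 1 value per feature over all replicates, so no replicate could be left out, and sequencing depth is unknown. No paired analysis was possible because the tables carry no values of single samples. With the highest peak of each gene only, the share of peaks above 0 was 90.0%, the median log ratio 1.54, the share with a seed match 60.0% and the median difference between matched and unmatched peaks 0.54, over 10 peaks. The same choice over all 6088 genes gave 79.9% above 0, a median of 1.10 and 44.5% with a seed match. With log ratios centred on the median of all peaks (0.65), the share above 0 was 47.6% and the median -0.031, and the medians of CCND1 and CDKN1A were -0.62 and -0.15. With the same centring, the median of the gene medians was 0.315, the other gene medians kept their sign (CDK4 at 0.0023), and the matched minus unmatched difference does not depend on the zero point. Counting only families with at least 1% of the mature miRNA sum, 26 of 124 peaks (21.0%) had a match, beside 4313 of 24041 in the list. The WEE1 median was 0.10 with 1 peak per overlap and 0.35 in the 3′UTR. Leaving out each gene in turn gave medians of 0.38 (without CCND2) to 0.90 (without WEE1) and matched minus unmatched differences of 0.43 (without WEE1) to 0.74 (without CDK6). Of 77 recalculations of the 5 summary values, 70 kept their direction and stayed within the interval of the main value. Intervals were Wilson for shares and exact binomial for medians, and for the difference both of its medians had to stay inside. Centring was the exception, as it cannot change the difference or the share with a seed match, and both were counted as kept. Most recalculations left out a single gene and so reused most of the same peaks. The interval for the median of gene medians was wide (0.03 to 1.69).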

Other observations

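Genes around the G1 set that the report does not describe had mostly positive log ratios. The RB and E2F group was listed in full, with 13 of 13 gene medians above 0 (beside 81.3% of all genes). Only 7 of these genes had at least 3 peaks. In this group 57 of 73 peaks lay above 0 (beside 70.3% of all peaks). RBL1 (p107), a relative of the retinoblastoma protein, had a median of 1.86 over 5 peaks and E2F2 1.60 over 3. E2F1 and E2F3, which carried the most peaks of this group, 22 and 18, had 0.15 and 0.73. RB1 itself had 1.27 over 3 peaks. Of the genes upstream of cyclin D, 5 of 6 were listed, with NRAS at 1.999 over 5 peaks, MYC at 1.52 over 3 and CTNNB1 at 0.52 over 18.

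In the DNA damage group 38 of 41 peaks lay above 0 (beside 70.3% of all peaks), but 30 of the 41 belonged to MDM2, a ubiquitin ligase, whose median was 1.32. The other genes with at least 3 peaks were ATM, with 1.77, and MDM4, with 0.62. Across the 7 groups, the 3 gene medians at or below 0 were those of CDKN2D, CDC25B and CUL3, each with 1 peak. Of 6 markers chosen for 293S cells, NEFL and VIM were listed, and 0 of 5 markers of other cell types were, although a list of Ago2 peaks is no measure of expression.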
